A study of Mus musculus with 10 samples.

Results

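Transcription factors that direct the formation of fat cells were examined by RNA-seq in inguinal white adipose tissue (iWAT) of male C57BL/6 mice. The 10 factors were Pparg, Rxra, Cebpa, Cebpb, Cebpd, Ebf1, Zfp423, Klf15, Klf4 and Gata2, out of 51826 genes listed in each table. They were chosen by name from what is known of adipocyte differentiation. That choice, and the choice of all gene lists below, was made with earlier results of these data known. The study compared a control diet (CD) with a low-protein diet (LPD), both in the males that ate them and in the sons of those males. In the F0 generation, 2 CD-fed and 2 LPD-fed males received their diet from weaning and were examined at an age of 10–12 weeks. In the F1 generation, 3 sons of CD fathers and 3 sons of LPD fathers (pLPD offspring) all ate the CD themselves, had mothers on the CD, and were examined at 5 weeks. All were of the strain C57BL6/JJmsSlc, which had been kept on the CD for 2 generations, and parents were housed together on the CD for the 2 days of mating. Each library came from 1 mouse, and the 3 F1 mice of a group had different mothers. Generation, age and set of libraries coincide and cannot be told apart.

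Adipogenesis runs as a cascade of transcription factors. C/EBPβ and C/EBPδ, helped by Klf4, appear first after a hormonal stimulus and switch on Pparg and Cebpa, which then maintain each other and the genes of the mature adipocyte. PPARγ, the nuclear receptor without which white fat does not form, binds DNA as a dimer with RXRα, and Klf15, a glucocorticoid-induced Krüppel-like factor, acts beside them. Zfp423 and Ebf1 mark cells committed to the lineage, whereas Gata2 holds preadipocytes back from it.

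Between 6351075 and 10044546 exon reads were counted per library, and a count of 0 allows a level of up to 3 reads, or 0.299 to 0.472 CPM by library, where CPM is the count scaled to a library of 1000000 reads. That limit covers counting error only. The adipocyte genes Adipoq, Fabp4, Plin1, Cidec and Lep were at 291 CPM or higher in every library. Introns held 36.0% to 37.9% of the reads on protein-coding genes in the other groups and 40.7% to 48.4% of them in pLPD offspring. Mitochondrial rRNA took at most 12.4% of the reads on genes outside pLPD offspring and 13.5% to 18.2% within them. The summed level of 10 skeletal muscle markers was 1525 to 2326 CPM in CD-fed and 746 to 1021 CPM in LPD-fed F0 males, against 44.3 to 180 CPM in the 6 F1 mice. In whole tissue, fewer cells of a type and less RNA per cell cannot be told apart.

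All 10 factors were expressed in every mouse, with at least 36 exon reads, the lowest value, on Gata2 in 1 of the pLPD offspring. Levels of different genes are compared here per kilobase of exon. In the sons of CD fathers, Cebpa was highest at 249 ± 6.62 CPM per kilobase (SD, n = 3), followed by Cebpb at 124 ± 9.5 (SD, n = 3), Pparg at 64.8 ± 8.98 (SD, n = 3) and Rxra at 34.1 ± 1.58 (SD, n = 3). Ebf1, Klf4 and Klf15 lay close to each other, at 21.3 ± 0.503, 20.7 ± 4.68 and 17.8 ± 2.16 CPM per kilobase (SD, n = 3), and the ranges of neighbours in this order overlapped. Zfp423 at 10.6 ± 0.754 (SD, n = 3), Cebpd at 7.71 ± 1.65 (SD, n = 3) and Gata2 at 2.84 ± 0.411 CPM per kilobase (SD, n = 3) were the lowest. The order was not the same in F0. In CD-fed F0 males the mean of Cebpb was 52.7 CPM per kilobase, below the 84.3 of Pparg. In LPD-fed males it was 77.1, below 92.0, whereas in pLPD offspring it was 92.1, above 82.0. The ranges in pLPD offspring overlapped, at 80.4 to 99.3 for Cebpb and 73.2 to 87.6 for Pparg. The place of Cebpb rests on all its exon reads, of which 35.8% matched that gene alone, against 96.6% for Pparg. In the sons of CD fathers, 454, 549 and 537 such reads fell on the 1.504 kilobases of Cebpb. On the 2.953 kilobases of Pparg, 1206, 1476 and 1611 did. In uniquely matching reads per kilobase, Cebpb was below Pparg in every library. Leaving out the other reads lowers Cebpb far more than Pparg over the same full exon lengths. This order therefore cannot settle which of the 2 genes was higher. Cebpd, at a mean of 20.1 CPM per kilobase in CD-fed F0 males, stood above the 13.5 of Zfp423. In LPD-fed males its mean was 14.1, below 16.0, but the ranges overlapped, at 13.21 to 15.05 and 13.21 to 18.73. In both F1 groups Cebpd stood below Zfp423.

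**Figure D1:**
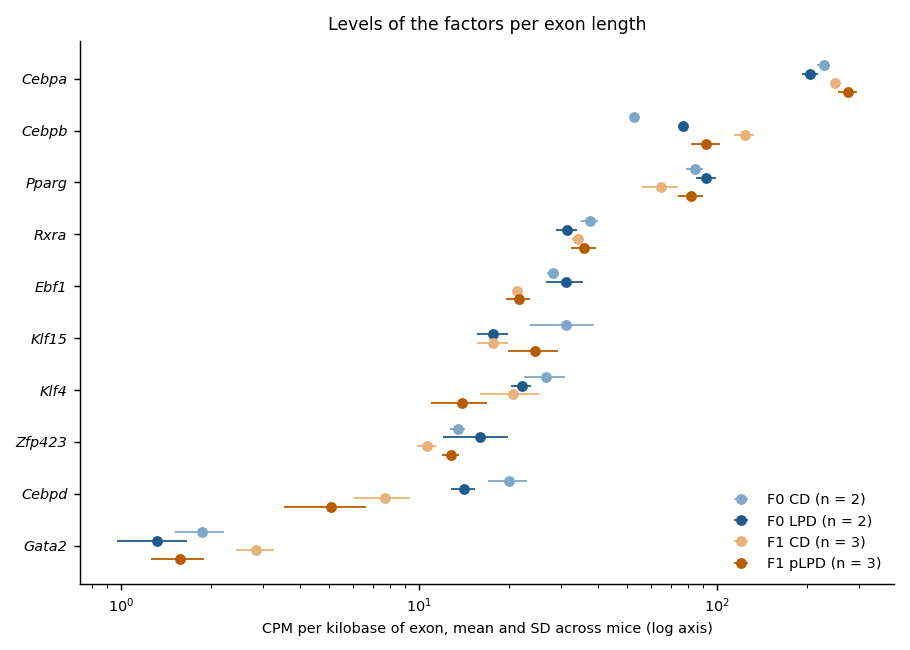
Level of each factor per kilobase of exon (log axis) in the 4 groups; points are group means and bars are SD across mice (n = 2 in F0, n = 3 in F1). Cebpa was highest and Gata2 lowest in each group, while the means of Cebpb and Pparg changed places between the generations in these exon reads. The ranges of Cebpb and Pparg overlapped in pLPD offspring. In uniquely matching reads per kilobase, Cebpb was below Pparg in every mouse. Leaving out the other reads lowers Cebpb far more than Pparg, so this order cannot rank the 2 genes.

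Differences between diets were tested with edgeR's quasi-likelihood test on exon reads, adjusted by Benjamini-Hochberg across every gene tested, and a gene was called at an adjusted p-value under 0.05. In F0, this called 2 of the 10 factors, Cebpb as higher and Klf15 as lower in LPD-fed males, against 2.5% of all 14581 genes tested. In F1, it called 0 of the 10, against 1.17% of 14049 genes. At an unadjusted p-value under 0.05, 3 factors were higher (Pparg, Zfp423 and Klf15) and 4 lower (Cebpb, Cebpd, Klf4 and Gata2) in pLPD offspring, against 15.3% of all genes, and DESeq2 called 1 of the 10, Cebpb, as lower, against 2.67% of genes. That 0 depended on the filter on low counts, without which edgeR called 6 of the 10, Pparg and Klf15 as higher and Cebpb, Cebpd, Klf4 and Gata2 as lower, with fold changes of almost the same size. The unfiltered fit called 3.59% of 22256 genes. With the exon share of a library, which was lower in pLPD offspring, as a covariate, edgeR called 0 of the 10, and the log2 fold changes were −0.54 for Cebpb (adjusted p = 0.385) and 0.69 for Klf15 (adjusted p = 0.394). Over all genes, this fit called only 1 higher and 10 lower. The exon share did not overlap between the F1 groups, so it and the paternal diet cannot be told apart. The covariate brought Cebpd from −0.60 to −0.20 (adjusted p = 0.912) and Klf4 from −0.57 to −0.22 (adjusted p = 0.877), and it took Gata2 from −0.83 to −1.28 (adjusted p = 0.364) and Pparg from 0.35 to 0.54 (adjusted p = 0.407). The difference between the 2 diet effects, an interaction term in one fit of the 10 libraries, passed this threshold for 2 of the 10. They were again Cebpb and Klf15, against 1.25% of 15111 genes. That fit includes the F1 groups and was not repeated with the exon share as a covariate. The median log2 fold change over the 10 factors was −0.20 in F0 and 0.053 in F1, beside 0.00035 and 0.0074 over all genes tested. A single gene cannot reach a two-sided exact permutation p below 0.1 with 3 mice against 3, or below 0.333 with 2 against 2.

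**Figure D2:**
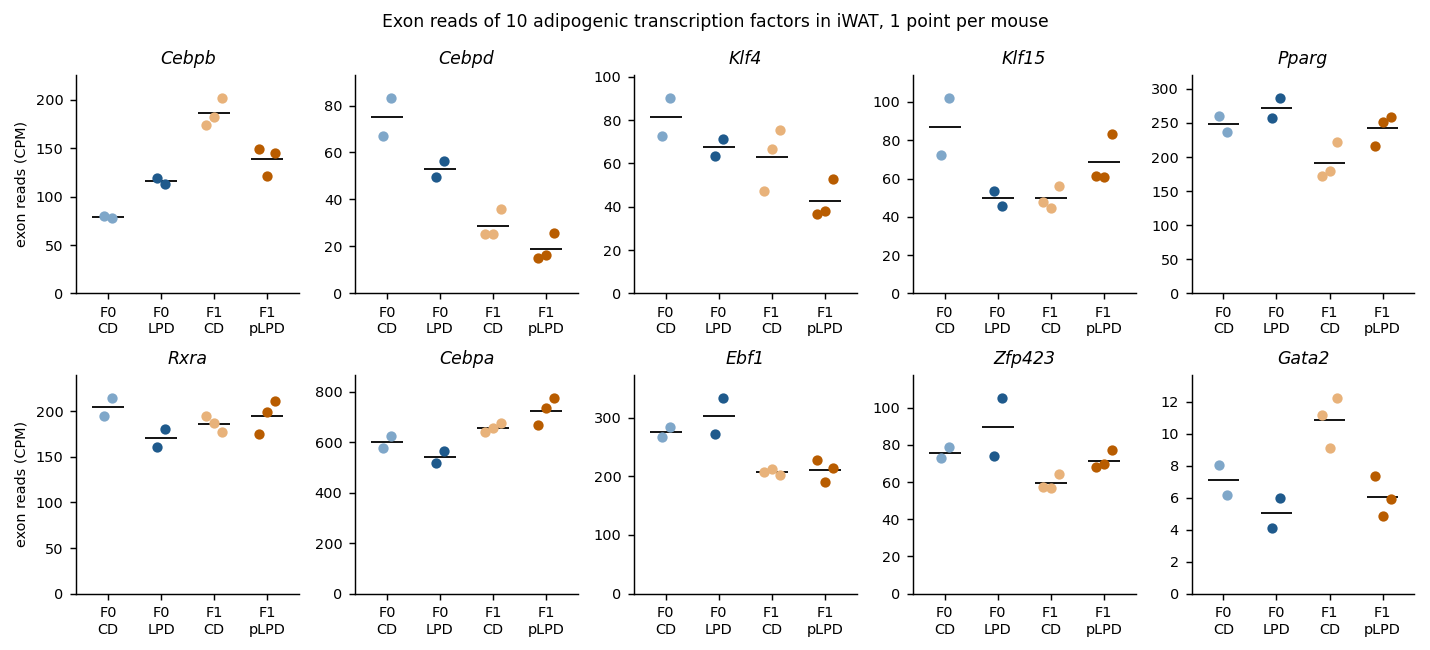
Exon reads of each factor in CPM, 1 point per mouse, with a line at the group mean; the vertical axes start at 0 and differ between genes. Cebpb rose with the LPD in F0, from 78.3 and 80.3 to 113 and 119 CPM, and lay lower in pLPD offspring than in sons of CD fathers, while Klf15 showed the reverse order in both generations.

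Cebpb (ENSMUSG00000056501), which encodes one of the factors that start the cascade, is a gene of 1 exon on chromosome 2 from 167688915 to 167690418 of mm10, on the plus strand. It was measured at 80.3 and 78.3 CPM in the 2 CD-fed males and at 119 and 113 CPM in the 2 LPD-fed males. The F0 groups did not overlap, and the log2 fold change was 0.55 (SE, the standard error of that value, 0.0851, adjusted p = 0.0186 by edgeR), a 1.46-fold higher level. In F1 the order was turned round, with 174, 182 and 202 CPM in the sons of CD fathers and 149, 121 and 145 CPM in pLPD offspring. Every pLPD mouse was below every son of a CD father, but the log2 fold change of −0.42 (SE 0.0989) did not pass the threshold in edgeR (adjusted p = 0.0683), while it did in DESeq2 (adjusted p = 0.0206) and with all 4 groups in one edgeR fit (adjusted p = 0.0306). Over the 14 alternatives of this value the adjusted p-value ran from 0.00579 without the filter to 0.385 with the exon share as a covariate. The F1 effect minus the F0 effect was −0.98 on the log2 scale (SE 0.146, adjusted p = 0.00945 by edgeR). In all exon reads, all F1 mice were above all F0 mice, with a log2 difference between generations of 0.74 (SE 0.0742, adjusted p = 1.604e-05 by edgeR), so that the 4 groups formed 4 separate steps from CD-fed F0 males up to the sons of CD fathers.

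Only 35.8% of the exon reads of Cebpb, and 32.2% to 39.1% by library, matched that gene alone, and its value is uncertain to that extent. Of its 1504 bases, 908 lie within the span of Tmem189 on the minus strand, the 2 genes share 312 exonic bases (167689511 to 167689822), and whether the counting used strand is not given in the sources used here. Uniquely matching reads gave the same order of the 4 group means, at 26.5 ± 0.928 (SD, n = 2), 42.9 ± 1.68 (SD, n = 2), 65.7 ± 5.76 (SD, n = 3) and 51.7 ± 7.83 CPM (SD, n = 3) from CD-fed to LPD-fed F0 males and then from sons of CD fathers to pLPD offspring. In these reads, however, pLPD replicate 2, at 42.9 CPM, lay below LPD-fed replicate 2 of F0, at 44.1 CPM, so those groups overlapped. With these reads the log2 fold change was 0.69 in F0 (adjusted p = 0.0128 by edgeR) and −0.34 in F1 (adjusted p = 0.178), and the difference between the effects was −1.04 (adjusted p = 0.0100). Exon reads of Tmem189 itself were at 57.9 ± 3.25 (SD, n = 2) and 48.5 ± 4.46 CPM (SD, n = 2) in CD-fed and LPD-fed F0 males, which is the opposite order to Cebpb. In F1 they were at 50.8 ± 6.50 (SD, n = 3) in the sons of CD fathers and 50.0 ± 1.67 CPM (SD, n = 3) in pLPD offspring. Few exon reads of Tmem189 matched it alone, 79 of 497 and 87 of 603 in the CD-fed F0 males. In the LPD-fed F0 males 56 of 432 and 60 of 442 did, so the values of Tmem189 are uncertain as well. How many of the reads not unique to Cebpb came from the shared bases was not tested. Leaving out 1 F0 mouse at a time left the F0 log2 fold change of Cebpb between 0.50 and 0.59, but the adjusted p-value was over 0.05 without CD-fed replicate 1 (0.0521), CD-fed replicate 2 (0.0759) or LPD-fed replicate 2 (0.0513). The interaction passed the threshold in 9 of 10 such fits and had an adjusted p-value of 0.0735 without CD-fed replicate 2 of F0.

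Klf15 (ENSMUSG00000030087), which encodes a Krüppel-like factor of the late steps of adipogenesis and of amino acid and glucose metabolism, lies on chromosome 6 from 90462576 to 90475238, on the plus strand. It was measured at 72.1 and 102 CPM in CD-fed and at 53.7 and 45.5 CPM in LPD-fed F0 males. The groups did not overlap, and the log2 fold change was −0.81 (SE 0.160, adjusted p = 0.0400 by edgeR), which puts the level 1.76-fold lower on the LPD. In F1, the sons of CD fathers were at 47.8, 44.7 and 56.3 CPM and pLPD offspring at 61.2, 60.9 and 83.4 CPM. Here every pLPD mouse was above every son of a CD father, with a log2 fold change of 0.47 (SE 0.134) that did not pass the threshold (adjusted p = 0.120 by edgeR). The F1 effect minus the F0 effect was 1.28 (SE 0.240, adjusted p = 0.0252 by edgeR). No difference between generations was detected for Klf15 (log2 difference −0.18, adjusted p = 0.281 by edgeR), and LPD-fed F0 males and sons of CD fathers had almost the same mean, 49.6 ± 5.79 (SD, n = 2) and 49.6 ± 6.03 CPM (SD, n = 3).

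Intron reads, which come largely from RNA not yet spliced, gave a second readout of Klf15 in the same libraries. Introns held 141 to 459 reads of Klf15 per library. On the scale of intron reads, CD-fed F0 males were at 59.3 and 71.4 CPM and LPD-fed males at 37.6 and 35.2 CPM. The fall with the LPD was close in size to that in exons, with a log2 fold change of −0.83 (SE 0.119, adjusted p = 0.00526 by edgeR, against 3.48% of 14334 genes called in F0 introns), and it passed the threshold without any 1 of the 4 mice. In F1 introns, by contrast, the sons of CD fathers were at 32.6, 40.1 and 38.0 CPM and pLPD offspring at 28.9, 34.6 and 40.9 CPM. These ranges overlapped, and the log2 fold change was −0.092 (SE 0.147, adjusted p = 0.841 by edgeR), beside 0.47 in exons. The difference between the exon and intron values was not tested.

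The F0 call of Klf15 in exon reads depended on single mice. It was lost without CD-fed replicate 2, the mouse with the highest level (log2 fold change −0.53, adjusted p = 0.0969), and without LPD-fed replicate 2 (−0.70, adjusted p = 0.190), and it had an adjusted p-value of 0.0536 with all 4 groups in one fit. The interaction passed the threshold in 6 of 10 fits with 1 library left out and was lost without CD-fed replicate 2 (adjusted p = 0.156) or LPD-fed replicate 2 of F0 (0.128), or without CD replicate 1 (0.0640) or CD replicate 2 of F1 (0.0648). Within F0, Klf15 followed the summed skeletal muscle markers from mouse to mouse. The 10 markers summed to 1525 and 2326 CPM in the CD-fed males and to 1021 and 746 CPM in the LPD-fed males, in the same order as Klf15. Of the 10, 6 were called lower on the LPD, beside 2.5% of all genes called in either direction. They were led by Myh7 (log2 fold change −5.65), Myh2 (−3.85) and Myh1 (−2.54), genes of myosin heavy chains. In F1, where the sum was 94.2, 129 and 180 CPM in the sons of CD fathers and 165, 44.3 and 144 CPM in pLPD offspring, Klf15 was at 44.7 to 83.4 CPM. The part of muscle RNA in the F0 difference was not tested.

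**Figure D3:**
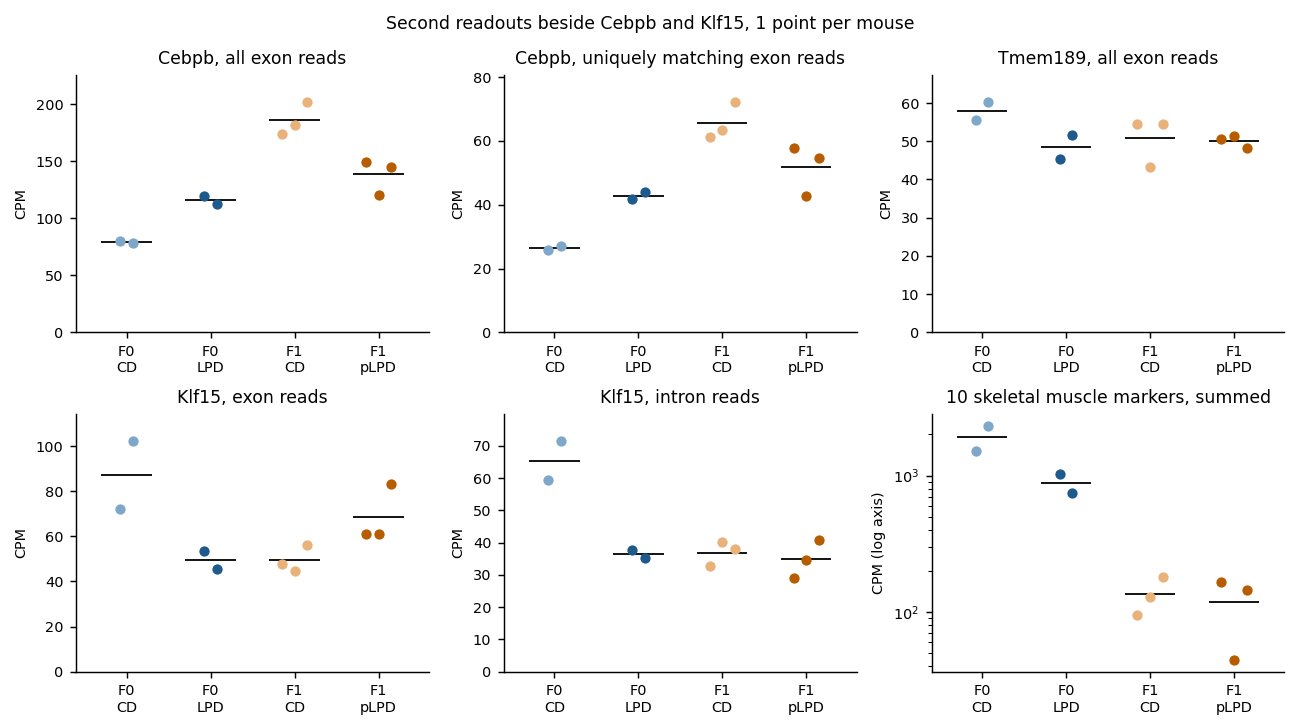
Values per mouse of Cebpb in all and in uniquely matching exon reads, of its neighbour Tmem189, of Klf15 in exon and intron reads, and of 10 skeletal muscle markers summed (log axis in that panel only); lines are group means, in CPM. Unique reads kept the order of the 4 group means for Cebpb, though LPD-fed F0 males and pLPD offspring then overlapped. Klf15 fell with the LPD in F0 in both exons and introns, and in F1 introns its groups overlapped.

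The promoters of these 2 factors, for which the diet effects of the generations differed, are shown as the 250 bases before the start of each gene in RefSeq on GRCm38.p6, on the plus strand, at chr2:167688665-167688914 for Cebpb and chr6:90462326-90462575 for Klf15. Capitals mark matches, on either strand, to any of 8 motifs searched, namely the GC box GGGCGG, the E-box CACGTG, the CCAAT box of factor NF-Y, the TATA box TATAAA, the cyclic AMP response element TGACGTCA, the C/EBP site TTGCNNAA, the glucocorticoid receptor hexamer AGAACA and the nuclear receptor hexamer AGGTCA.
Cebpb: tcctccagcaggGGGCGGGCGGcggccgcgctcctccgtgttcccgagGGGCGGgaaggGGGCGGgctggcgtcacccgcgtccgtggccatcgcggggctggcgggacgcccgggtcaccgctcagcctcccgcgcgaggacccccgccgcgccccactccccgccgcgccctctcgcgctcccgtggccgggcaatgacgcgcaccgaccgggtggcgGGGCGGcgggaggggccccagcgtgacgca
Klf15: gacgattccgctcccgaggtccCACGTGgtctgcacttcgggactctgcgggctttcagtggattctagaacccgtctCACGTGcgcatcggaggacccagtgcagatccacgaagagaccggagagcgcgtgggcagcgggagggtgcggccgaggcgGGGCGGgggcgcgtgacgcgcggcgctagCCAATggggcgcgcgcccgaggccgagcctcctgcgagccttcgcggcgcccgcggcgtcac

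The Cebpb window held 5 GC boxes, of which the first 2 overlap, and no match to the other 7 motifs. The Klf15 window held 2 E-boxes, with their first bases 228 and 172 bases before the start, 1 GC box and 1 CCAAT box. Over 32536 distinct windows of this length in the reference table, 33.0% held a GC box, 33.8% CCAAT and 6.04% an E-box. Of the 10 factors, 9 have a window in the table, 15 windows in all, and Cebpd has none. The window before the third start of Pparg, on chromosome 6 at 115421816 to 115422065, held 2 matches to the C/EBP site, a motif found in 9.57% of windows, and 1 window of Zfp423 held 1 such match. No window of the 9 factors held the cyclic AMP response element or the glucocorticoid receptor hexamer, which occur in 1.56% and 16.0% of windows. A match is only a run of letters and does not show binding.

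**Figure D4:**
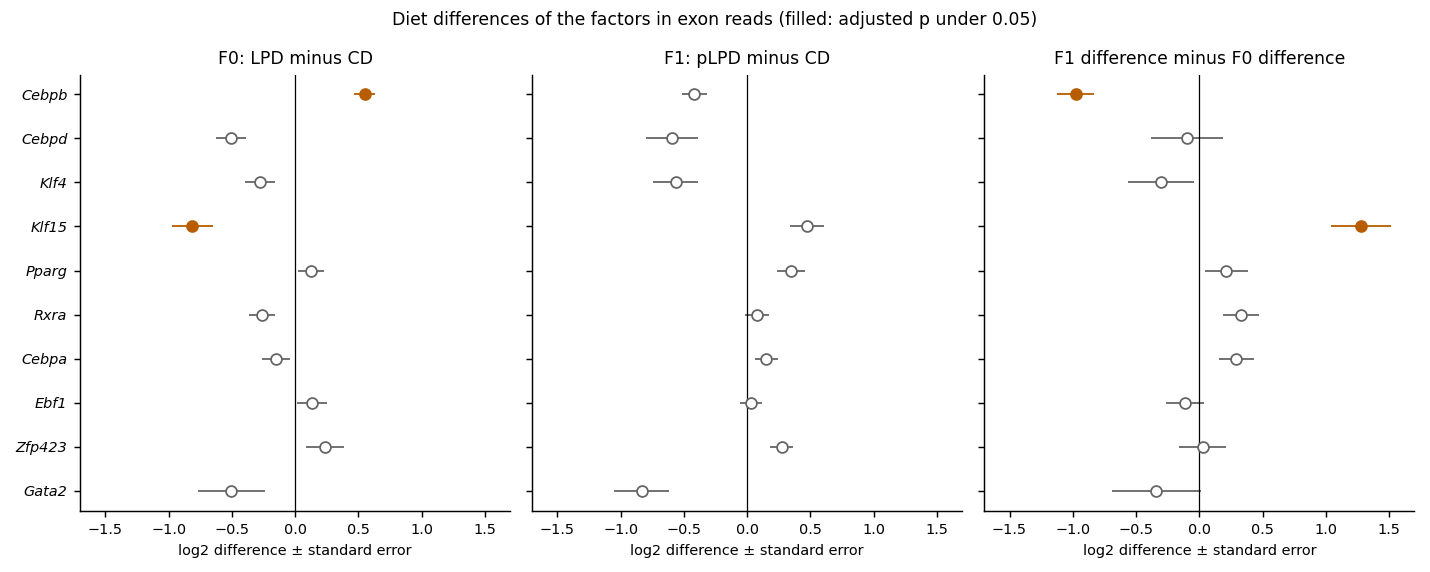
Log2 differences of the 10 factors in exon reads with their standard errors for the diet in F0 (LPD minus CD), the paternal diet in F1 (pLPD minus CD) and the F1 difference minus the F0 difference; filled points have an adjusted p-value under 0.05 in edgeR. Cebpb and Klf15 are the filled points in F0 and in the difference of the effects, with opposite signs.

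Cebpd (ENSMUSG00000071637), the partner of Cebpb at the start of the cascade, lies on chromosome 16 from 15887286 to 15891031. Unlike Cebpb, it had the same sign of difference in both generations, with 67.2 and 83.2 CPM in CD-fed and 49.5 and 56.4 CPM in LPD-fed F0 males. The sons of CD fathers were at 25.4, 25.2 and 36.0 CPM and pLPD offspring at 15.2, 16.1 and 25.7 CPM. The F0 groups did not overlap and the F1 groups did, by 1 pLPD mouse. The log2 fold changes of −0.51 in F0 (SE 0.120, adjusted p = 0.0687) and −0.60 in F1 (SE 0.206, adjusted p = 0.197) did not pass the threshold of edgeR, and the test of their difference gave −0.10 (adjusted p = 0.934). Without CD-fed replicate 1, the F0 value was −0.65 (adjusted p = 0.0315), and with the exon share as a covariate the F1 value was −0.20 (adjusted p = 0.912). Between generations Cebpd showed the largest difference of the 10 factors, with all F1 mice below all F0 mice and a log2 difference of −1.43 (SE 0.140, adjusted p = 1.422e-05 by edgeR), a 2.70-fold lower level. Cebpd and Cebpb thus differed between the generations in opposite directions, each by a margin that passed the threshold with any 1 library left out.

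Klf4 (ENSMUSG00000003032), which acts upstream of Cebpb in the first hours of adipogenesis and is also expressed in vessels and skin, lies on chromosome 4 from 55527143 to 55532466 on the minus strand. Its values were 72.5 and 90.2 CPM in CD-fed and 63.6 and 71.1 CPM in LPD-fed F0 males, with a log2 fold change of −0.28 (SE 0.118, adjusted p = 0.303 by edgeR). The F0 groups stood just apart, and without CD-fed replicate 2 the value was −0.11 (adjusted p = 0.829). In F0 introns, by contrast, it was 0.095 (adjusted p = 0.905), of the opposite sign. In F1, the values were 47.4, 66.5 and 75.3 CPM in the sons of CD fathers and 36.4, 38.0 and 52.8 CPM in pLPD offspring (log2 fold change −0.57, SE 0.176, adjusted p = 0.152 by edgeR). The highest pLPD mouse reached into the range of the sons of CD fathers, and with the exon share as a covariate the value was −0.22 (adjusted p = 0.877). Intron reads of Klf4 were few, 24 to 53 per library in the sons of CD fathers and only 9 to 15 per library in pLPD offspring, and there the F1 groups did not overlap (log2 fold change −1.53, SE 0.421, adjusted p = 0.135 by edgeR). Epithelial keratins, which mark cells where Klf4 is also active, were lower in pLPD offspring beside it, with Krt8, Krt18 and Krt19 called among 5 markers tested. Of all genes, 1.17% were called in F1. The 8 epithelial markers summed to 16.3 to 22.2 CPM with CD fathers and to 2.45 to 5.97 CPM with LPD fathers, and Krt5 was at 0 in 6 of the 10 libraries. Of 8 smooth muscle and pericyte markers, 6 were negative and 2 positive in F1. By edgeR 1 was called lower, Acta2 (log2 fold change −0.74, adjusted p = 0.0276). By DESeq2 2 were, Acta2 and Cnn1, beside 2.67% of all genes. The 8 summed to 573 to 669 CPM with CD fathers and to 526 to 652 CPM with LPD fathers. The part of epithelial or vessel cells in the Klf4 difference was not tested. The level of Klf4 was lower in F1 than in F0 by 0.52 on the log2 scale (SE 0.130, adjusted p = 0.00867 by edgeR), and this call was lost without CD-fed replicate 2 of F0 (adjusted p = 0.0535).

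Pparg (ENSMUSG00000000440), which encodes the nuclear receptor at the centre of adipogenesis, lies on chromosome 6 from 115360951 to 115490399. It was measured at 261 and 237 CPM in CD-fed and 257 and 287 CPM in LPD-fed F0 males, and these ranges overlapped (log2 fold change 0.13, SE 0.104, adjusted p = 0.639 by edgeR). The sons of CD fathers were at 172, 180 and 222 CPM and pLPD offspring at 216, 251 and 259 CPM. The F1 ranges met at 1 mouse of each group, and the log2 fold change of 0.35 (SE 0.112) did not pass the threshold (adjusted p = 0.167 by edgeR). It did so without CD replicate 3, the highest of the sons of CD fathers (0.47, adjusted p = 0.0317). In introns, which held 72.1% of the reads on Pparg, the F1 value was 0.34 (SE 0.140, adjusted p = 0.311 by edgeR), close to that in exons, and 0.53 (adjusted p = 0.0429) without pLPD replicate 1, the library with the highest intron share. Exon reads were lower in F1 than in F0 by 0.27 on the log2 scale (SE 0.0845, adjusted p = 0.0253 by edgeR), but the sign turned to 0.17 (adjusted p = 0.194) when intron reads were counted too, and the call in exon reads was lost in 4 of 10 fits with 1 library left out.

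Rxra (ENSMUSG00000015846), which encodes the dimer partner of PPARγ, lies on chromosome 2 from 27676440 to 27762957. It varied least among the 4 groups, with a ratio of 1.20 between the highest and the lowest group mean. CD-fed F0 males were at 195 and 214 CPM and LPD-fed males at 161 and 181 CPM (log2 fold change −0.26, SE 0.101, adjusted p = 0.250 by edgeR). The sons of CD fathers were at 194, 187 and 177 CPM and pLPD offspring at 175, 199 and 212 CPM (log2 fold change 0.076, SE 0.0918, adjusted p = 0.748). The F0 groups did not overlap, whereas in F1 pLPD offspring lay both below and above all sons of CD fathers. Intron reads gave −0.27 in F0 (adjusted p = 0.155) and −0.23 in F1 (adjusted p = 0.367), so in F1 the sign in introns was opposite to that in exons.

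Cebpa (ENSMUSG00000034957), which encodes the factor that sustains Pparg and confers insulin sensitivity on the adipocyte, lies on chromosome 7 from 35119293 to 35121928. It was measured at 579 and 623 CPM in CD-fed and 519 and 565 CPM in LPD-fed F0 males (log2 fold change −0.15, SE 0.112, adjusted p = 0.594 by edgeR). The sons of CD fathers were at 640, 657 and 675 CPM and pLPD offspring at 666, 734 and 774 CPM (log2 fold change 0.15, SE 0.0931, adjusted p = 0.485 by edgeR). Every F1 mouse was above every F0 mouse, and the difference between generations of 0.27 on the log2 scale (SE 0.0693, adjusted p = 0.00892 by edgeR) passed the threshold with any 1 library left out. Cebpa and Cebpb were the 2 factors called higher in F1, where 16.4% of all genes were, and Cebpd, Klf4, Pparg, Ebf1 and Zfp423 were the 5 called lower, where 16.1% of all genes were. Cebpa, Cebpb, Cebpd and Ebf1 were the 4 factors whose generations did not overlap, which held for 20.1% of all genes.

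Ebf1 (ENSMUSG00000057098), an early B cell factor that also commits progenitors to the adipocyte lineage, lies on chromosome 11 from 44617317 to 45008091, and 90.6% of its reads were in introns. CD-fed F0 males were at 266 and 285 CPM and LPD-fed males at 273 and 333 CPM in exon reads. The sons of CD fathers were at 208, 212 and 203 CPM and pLPD offspring at 229, 190 and 214 CPM. The diets overlapped in both generations, with log2 fold changes of 0.14 in F0 (SE 0.118, adjusted p = 0.662 by edgeR) and 0.029 in F1 (SE 0.0875, adjusted p = 0.915). In F1 introns, the pLPD offspring, at 3575, 3689 and 3813 CPM of intron reads, were all above the sons of CD fathers, at 3364, 3451 and 3181 CPM, by a log2 fold change of only 0.15 (SE 0.0890, adjusted p = 0.502 by edgeR). The level in exon reads was lower in F1 than in F0 by 0.46 on the log2 scale (SE 0.0743, adjusted p = 0.0004919 by edgeR), and with intron reads counted too by 0.13 (adjusted p = 0.180). All 9 B cell markers had a positive log2 fold change in F0 and in F1, with 1 called by edgeR in F0 (Ms4a1, 0.46) and 0 in F1 (1 at an unadjusted p-value under 0.05, and 0 by DESeq2), and their summed level was 632 to 726 CPM in CD-fed and 832 to 878 CPM in LPD-fed F0 males. Of all genes, edgeR called 2.5% in F0 and 1.17% in F1. The part of B cells in the reads on Ebf1 was not tested.

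Zfp423 (ENSMUSG00000045333), which encodes a zinc finger protein that raises Pparg in preadipocytes, lies on chromosome 8 from 87661810 to 87959595 on the minus strand. CD-fed F0 males were at 72.8 and 79.0 CPM and LPD-fed males at 74.1 and 105 CPM (log2 fold change 0.24, SE 0.148, adjusted p = 0.509 by edgeR). Only LPD-fed replicate 2 stood out, and without it the value was −0.035 (adjusted p = 0.954). In F1, pLPD offspring, at 68.0, 69.7 and 77.0 CPM, were all above the sons of CD fathers, at 57.6, 56.8 and 64.5 CPM, with a log2 fold change of 0.27 (SE 0.0933, adjusted p = 0.194 by edgeR). Introns, which held 70.3% of the reads on Zfp423, gave −0.13 in F1 (adjusted p = 0.590) and 0.29 in F0 (adjusted p = 0.164). The level in exon reads was lower in F1 than in F0 by 0.34 on the log2 scale (SE 0.0912, adjusted p = 0.0133 by edgeR), and this call was lost without CD-fed replicate 2 (adjusted p = 0.0632) or LPD-fed replicate 2 of F0 (0.0827) and with intron reads counted too (0.106).

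Gata2 (ENSMUSG00000015053), the only inhibitor of adipogenesis among the 10 and also a factor of mast cells and endothelium, lies on chromosome 6 from 88193891 to 88207032. It was measured at 8.06 and 6.19 CPM in CD-fed and 4.10 and 5.97 CPM in LPD-fed F0 males. The sons of CD fathers were at 11.2, 9.14 and 12.2 CPM and pLPD offspring at 7.35, 4.88 and 5.92 CPM. In both generations the groups did not overlap and the mice exposed to the LPD, themselves or through their fathers, were below the others. The log2 fold changes of −0.50 in F0 (SE 0.262, adjusted p = 0.412) and −0.83 in F1 (SE 0.220, adjusted p = 0.0984) did not pass the threshold of edgeR, at 36 to 91 exon reads per library. The F0 value ran from −0.79 without LPD-fed replicate 2 to −0.25 without LPD-fed replicate 1, and was −0.31 without CD-fed replicate 1. In F0 introns it was −0.0040 (adjusted p = 0.998). Gata2 had the largest F1 difference of the 10 factors in exon reads. Its level was higher in F1 than in F0 by 0.44 on the log2 scale, which did not pass the threshold (SE 0.177, adjusted p = 0.0756 by edgeR). Markers of both cell types were looked at beside it. The 8 mast cell markers summed to 67.7 to 73.1 CPM in CD-fed and 60.4 to 61.5 CPM in LPD-fed F0 males. In F1 they summed to 58.1 to 72.3 CPM in the sons of CD fathers and 45.8 to 54.5 CPM in pLPD offspring, with 1 of 5 tested markers called lower (Kit, log2 fold change −0.54, adjusted p = 0.0448 by edgeR), while Fcer1a was at 0 in 5 of the 10 libraries. Of all genes, edgeR called 1.17% in F1 exon reads. The 10 endothelial markers were all negative in F1, with a median log2 fold change of −0.32, but 0 were called by edgeR (5 at an unadjusted p-value under 0.05) and 0 by DESeq2. The part of these cells in the Gata2 difference was not tested.

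Counted by whether the mice of the 2 diets overlapped, 7 of the 10 factors stood apart in F0 (Cebpb higher, and Klf15, Cebpd, Klf4, Rxra, Cebpa and Gata2 lower), which with 2 mice against 2 was the case for 46.5% of all genes. In F1, 4 stood apart (Klf15 and Zfp423 higher, Cebpb and Gata2 lower), beside 20.1% of all genes. In intron reads, which were sufficient for 7 of the 10 factors, 3 stood apart in F0 (Klf15 and Rxra lower, Zfp423 higher), beside 45.7% of all genes, and 2 in F1 (Ebf1 higher, Klf4 lower), beside 18.9%. In F1 introns, 0 of these 7 factors were called by edgeR, with 0.424% of 13456 genes called, and 2 had an unadjusted p-value under 0.05, Pparg and Klf4, against 13.8% of genes. Cebpa, Cebpb and Cebpd had at most 4 intron reads in any library and were not tested there.

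Exon reads of other regulators of the cascade were tested likewise, where edgeR called 2.5% of all genes in F0 and 1.17% in F1. Of 23 further regulators that promote or accompany adipogenesis, edgeR and DESeq2 each called 0 in F0. At an unadjusted p-value under 0.05 in edgeR there were 7, and Ebf2, a relative of Ebf1 active in brown fat, had the smallest p (log2 fold change −0.41, adjusted p = 0.0711). In F1, both tools called 1 of 22 tested, the coactivator Ppargc1a, which was higher in pLPD offspring (log2 fold change 1.05, SE 0.183, adjusted p = 0.0260 by edgeR). Like Klf15, Ppargc1a differed between the generations in its diet effect, with an interaction of 1.44 (SE 0.304, adjusted p = 0.0410 by edgeR). Its F0 value was −0.40 in exons (adjusted p = 0.343), but in F0 introns it was called higher on the LPD, by 1.09 (SE 0.112, adjusted p = 0.000948 by edgeR), and in F1 introns it was at 0.46 (adjusted p = 0.118). In F0 introns, edgeR called 4 of the 22 regulators tested there, also Ppargc1b as higher (0.47, adjusted p = 0.0296) and Klf9 (−0.42, adjusted p = 0.0499) and Srebf1, a factor of lipid synthesis (−0.41, adjusted p = 0.0439), as lower. In F1 introns it called 0 of 21, with 3 at an unadjusted p-value under 0.05, and DESeq2 was not run on introns. Over all genes, edgeR called 3.48% in F0 introns and 0.424% in F1 introns. Between generations, 4 of the 23 were called higher and 5 lower in F1, beside 16.4% and 16.1% of all genes. They were led by Ppargc1b (log2 difference 0.58), a coactivator, and Klf9 (−0.52), a Krüppel-like factor that promotes adipogenesis. Of 16 repressors of adipogenesis, 1 of 14 tested was lower in LPD-fed F0 males, Zfp521, an opponent of Zfp423 and Ebf1 (log2 fold change −0.46, adjusted p = 0.0490 by edgeR), a call that DESeq2 did not make. In F1, edgeR called 0 of 13 (2 at an unadjusted p-value under 0.05) and DESeq2 1, Trib3, and Zfp521 had a log2 fold change of −0.43 (adjusted p = 0.0816 by edgeR).

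Genes that these factors switch on in the mature adipocyte were represented by 24 targets. In F0, 3 were higher on the LPD, namely Cidea (log2 fold change 1.62), Angptl4 (1.02) and Aqp7 (0.77), which act on lipid droplets, on lipoprotein lipase and in glycerol export, and 1 was lower, the adipokine Retn (−0.78, adjusted p = 0.0234 by edgeR). Of all genes, 2.5% were called in F0, and the median of the 24 targets was 0.20. DESeq2 called 4 higher and 4 lower, and Cidea was not among them. In F0 introns, edgeR called 9 of the 24 higher and 1 lower, with Dgat2, the last enzyme of triglyceride synthesis (1.35, adjusted p = 0.00232), Angptl4 (1.09, adjusted p = 0.00460) and Adipoq (0.96, adjusted p = 0.0381) among those higher and the lipase Pnpla2 (−0.60, adjusted p = 0.0141) lower. In these introns 3.48% of all genes were called. In F1, 0 of the 24 were called by edgeR (6 at an unadjusted p-value under 0.05) and 2 by DESeq2, Agpat2 and Gpd1, both lower, with a median log2 fold change of 0.034, and Pck1, an enzyme of glyceroneogenesis, had the smallest p (0.75, adjusted p = 0.108). Of all genes, edgeR called 1.17% there and DESeq2 2.67%. In F1 introns Pck1 was called higher, by 0.97 (SE 0.165, adjusted p = 0.0309 by edgeR), as 1 of the 24 targets, beside 0.424% of all genes. The diet effects of Cfd, which encodes adipsin, and Retn differed between the generations, by 1.13 (adjusted p = 0.0381) and 1.01 (adjusted p = 0.0454). Between generations, 18 of the 24 targets were called, 6 higher and 12 lower in F1, with Cidea (log2 difference 0.97), Agpat2 (0.78) and Gpd1 (0.77) leading those higher and Cidec (−0.71) and Angptl4 (−0.69) among those lower. Over all genes, 16.4% were called higher and 16.1% lower.

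Signals that act on Cebpb, Cebpd and Klf15 were looked at through 2 further lists. Of the immediate early genes, which respond within minutes to a stimulus or to handling of the tissue, 15 of 16 were tested, and 3 rose with the LPD in F0, Jun (log2 fold change 0.89, SE 0.0865, adjusted p = 0.00373), Fos (1.36, adjusted p = 0.0243) and Btg2 (0.58, adjusted p = 0.0190), while 13 of the 15 were positive. Over all genes, edgeR called 2.5% in F0 exons, 3.48% in F0 introns and 1.17% in F1 exons. In F0 introns, 0 of 11 were called by edgeR (3 at an unadjusted p-value under 0.05), with a median of 0.61. The 16 genes summed to 277 and 278 CPM in the CD-fed males and to 376 and 411 CPM in the LPD-fed males, beside the rise of Cebpb. In F1, 0 of the 15 were called by edgeR or by DESeq2 (1 at an unadjusted p-value under 0.05, Jun, log2 fold change −0.46, adjusted p = 0.159), and the sums were 309 to 348 CPM in the sons of CD fathers and 282 to 316 CPM in pLPD offspring. Jun, like Cebpb, had diet effects that differed between the generations, by −1.36 (SE 0.205, adjusted p = 0.00960 by edgeR). The part of a stimulus or of handling in the Cebpb difference was not tested.

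Of 10 targets of the glucocorticoid receptor, which also induces Klf15 and Cebpd, 8 had a negative log2 fold change on the LPD in F0, with a median of −0.34, yet 1 was called by edgeR and it was higher, the cell cycle inhibitor Cdkn1a (1.17, adjusted p = 0.0192). The share of all genes called was 2.5% in F0 exons, 3.48% in F0 introns and 1.17% in F1 exons. In F0 introns, edgeR called 2 of the 8 tested, both lower, Fkbp5, a chaperone partner of the receptor (−0.87, adjusted p = 0.00235), and the zinc finger gene Zbtb16 (−0.46, adjusted p = 0.0296), and the median was −0.012. In F1, 7 of the 10 were positive with a median of 0.19, and 0 were called by edgeR (2 at an unadjusted p-value under 0.05) or by DESeq2, with Mt1, a metallothionein, having the smallest p (0.42, adjusted p = 0.239). The summed level was 684 and 944 CPM in CD-fed and 603 and 696 CPM in LPD-fed F0 males, and the groups overlapped. Klf15 and Cebpd were likewise negative in F0, whereas in F1 Klf15 was positive and Cebpd negative.

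Markers of other cells of the tissue moved beside the factors in F1. Macrophage markers were called lower in pLPD offspring in 6 of 9 tested, among them C1qa (log2 fold change −0.73), Cd163 (−0.70) and Adgre1 (−0.64), and summed to 788 to 924 CPM, against 1143 to 1419 CPM in the sons of CD fathers. Of all genes, edgeR called 1.17% in F1. Of the 10 progenitor markers, which label the cells that Zfp423 and Ebf1 commit, 8 were negative in F1 with a median log2 fold change of −0.22, and 0 were called by edgeR (5 at an unadjusted p-value under 0.05) or by DESeq2. The 8 T cell markers were all positive in F1 with a median of 0.34, and again 0 were called by edgeR (7 at an unadjusted p-value under 0.05) or by DESeq2. The part of these cells in the values of the factors was not tested.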

How the data were processed

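RNA was taken from the iWAT of 1 mouse per library, depleted of rRNA and made into directional libraries sequenced on a NextSeq 500. The authors mapped the reads to mm10 and counted them per gene in CLC Genomics Workbench, and the deposited values used here are whole-number counts of reads on exons, on introns, on the whole gene and of uniquely matching exon reads. Counts of the 10 libraries, with 6351075 to 10044546 exon reads each, were not pooled. The tables' normalized expression values were not used. Whether strand entered the counting, and how reads matching several genes were assigned, is not given in the sources used here, which bears on Cebpb, Cebpd, Cebpa, Pparg and Ebf1, each overlapped by a gene on the opposite strand.

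Exon reads were tested with edgeR 4.0.16 in R 4.3.3 (filterByExpr, TMM, quasi-likelihood F-test, two-sided, Benjamini-Hochberg adjustment over all genes tested, threshold 0.05), for the diet within F0 and within F1, for the interaction of generation and diet, and for the generation averaged over diets. Intron reads were tested in the same way within each generation. The fits were tested on simulated data. CPM values are exon reads of a TMM-scaled library of 1000000 reads, and permutation tests used log2(CPM + 0.5). The alternatives were DESeq2 1.42.0, its size factors, no filter, unique or all reads, all 4 groups in one fit and a replicate block. Further ones were the exon share as a covariate, for exon reads of F1 only, and each library left out. Deviations from the group means were compared between mice of different diets with the same replicate number. Their r was −0.000158 to 0.0389 for the 3 pairs of F1. In F0 it was 0.0487 for both pairs, which with 2 mice per group must share 1 value. So few mice cannot settle whether the numbers pair them. Promoter windows came from RefSeq on GRCm38.p6.

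The 10 factors and all gene lists were chosen with earlier results of these data known. All 10 are described for the diet in exon reads of F0 and of F1, while in the other comparisons not every value is printed. From the other lists, up to 3 genes per direction with the largest change among those past the threshold and at a mean of at least 1 CPM could be named, or the gene with the smallest p where none passed. A gene that this rule selects is not reported here. Genes that only DESeq2 called, the markers beside Klf4 and Gata2, and Zfp521 in F1 were named after their values were seen.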

Additional observations from a re-analysis of the deposited data

Results flagged for a closer look

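The diet effects of 2 of the 10 factors differed between the generations in the test of the difference itself, the F1 effect minus the F0 effect by edgeR's interaction term. For Cebpb the difference was −0.98 on the log2 scale (adjusted p = 0.00945), from 0.55 in F0 and −0.42 in F1. For Klf15 it was 1.28 (adjusted p = 0.0252), from −0.81 in F0 and 0.47 in F1. In both, the exon reads of the 2 diets did not overlap in either generation, which held for 46.5% of all genes in F0 and 20.1% in F1. In F1 introns the diet groups of Klf15 overlapped (log2 fold change −0.092). The exon share, which did not overlap between the F1 groups, was not entered as a covariate in the interaction.

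Among the other genes looked at, Jun had a difference of −1.36 (adjusted p = 0.00960), from 0.89 in F0 to −0.46 in F1, the same signs as Cebpb. Ppargc1a had a difference of 1.44 (adjusted p = 0.0410), Retn of 1.01 (adjusted p = 0.0454) and Cfd of 1.13 (adjusted p = 0.0381), all 3 with the signs of Klf15 in exon reads. In F0 introns, the log2 fold change was 1.09 for Ppargc1a, opposite to its −0.40 in exons, −0.064 for Retn and −0.40 for Cfd. The macrophage marker Adgre1 had a difference of −0.70 (adjusted p = 0.0354 by edgeR). The muscle myosins Myh2 and Myh7 had differences of 4.01 (adjusted p = 0.0393) and 7.10 (adjusted p = 0.0287), and these rest on the F0 males, whose libraries held most of the muscle RNA. Groups of 2 or 3 mice are too small to single out a mouse.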

How the results depend on the processing

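The fold changes of the 10 factors held their direction and side of the threshold in 589 of their alternative values, lost a call in 20, gained one in 19 and turned in sign in 30. Depth was lowest for Gata2, at 36 to 91 exon reads per library, and for intron reads of Gata2 (8 to 30) and Klf4 (9 to 53). The causes of the changes below were not tested.

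In F1, where 20 genes were called higher and 144 lower, there were 74 and 301 with DESeq2, 234 and 564 without the low-count filter, 62 and 277 with all 4 groups in one fit, 1 and 10 with the exon share as covariate, and 42 higher with unique reads. Of the factors, DESeq2 and the fit of all 4 groups each called 1 lower, and the unfiltered fit 2 higher and 4 lower. In F0 (172 higher, 192 lower), the unfiltered fit called 633 and 710, with 2 factors lower, and the fit of all 4 groups 110 and 65, with 0 factors lower. The interaction (54 higher, 135 lower) gave 110 and 243 with DESeq2 and 314 and 576 unfiltered. Counting all reads on the gene left 2 factors lower in F1 than in F0 and turned the sign of Pparg there (0.17), of Rxra in F1 (−0.032), of Pparg in F0 (−0.0015), and of Ebf1 (0.15) and Zfp423 (−0.24) in the interaction. The covariate turned Ebf1 in F1 (−0.10). Exon library sizes gave 34 genes higher in F1 introns.

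Whether the replicate numbers pair the mice could not be settled with so few mice. A replicate block gave 48 genes higher in F1, with 1 factor higher and 2 lower, 656 higher and 735 lower in F0, with 3 factors lower, and 83 higher in the interaction. In introns the block gave 68 genes lower in F1 and 356 higher in F0, with 1 factor higher, and turned Gata2 in F0 (0.026). The block left the calls of Cebpb and Klf15 in F0 and in the interaction in place.

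With 1 library left out, 1 to 140 genes were called higher and 17 to 370 lower in F1 (factors 0 to 2 and 0), 68 to 281 and 37 to 223 in F0 (factors 0 to 1 and 0 to 2), 5 to 132 and 14 to 263 in the interaction (0 to 1 each), 1636 to 2459 and 1549 to 2510 between generations (factors 2 and 3 to 5), 3 to 54 and 2 to 136 in F1 introns (0 to 1 and 0), and 104 to 414 and 185 to 550 in F0 introns (0 and 1). Small differences changed sign. Ebf1 ran from −0.030 to 0.093 in F1, from −0.015 to 0.27 in F0 and from −0.25 to 0.037 in the interaction. Zfp423 ran from −0.035 to 0.47 in F0 and from −0.21 to 0.30 in the interaction, Cebpd from −0.37 to 0.096 in the interaction, and Rxra from −0.015 to 0.064 between generations. In introns, Klf15 ran from −0.21 to 0.033 in F1, and in F0 Klf4 ran from −0.048 to 0.26, Pparg from −0.20 to 0.067, Gata2 from −0.34 to 0.46 and Ebf1 from −0.061 to 0.16.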
